A study of Arabidopsis thaliana with 4 samples.

Results

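Arabidopsis chromosome arms hold 100 bp stretches that carried almost no CHG methylation in wild type leaves and a clear amount of it in leaves that lack DDM1 and RDR2. There were 691 such bins. They were chosen among 364150 arm bins with wild type CHG under 5%, so the bins described here make up 0.190% of them, and among 1315599 bins of 100 bp on the 5 nuclear chromosomes in all. A bin was a member if it lay more than 2 Mb outside the centromeric satellite arrays, had at least 4 CHG cytosines with 4 or more calls in the quadruple mutant ccr4a ccr4b ddm1 rdr2, ddm1 rdr2 and WT, reached a pooled CHG of 20% in the quadruple mutant or in ddm1 rdr2, and had under 5% in WT. The members were thus selected on the CHG levels of these 3 libraries. Their CHG levels, and every contrast of one of the mutants without DDM1 with WT or with the other, are given as a description, and counts of bins called in those contrasts support nothing beyond the rule.

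The assay was enzymatic methyl-seq, in which a cytosine that resists enzymatic conversion is read as methylated. Each library came from leaves of 6-week-old soil-grown plants of the Columbia (Col-0) accession. There was 1 library per genotype, for 4 in all: the quadruple mutant ccr4a ccr4b ddm1 rdr2, the double mutant ddm1 rdr2, the double mutant ccr4a ccr4b, and WT. The ddm1 and rdr2 mutations occur only together, so their effects cannot be told apart here. The alleles and the number of plants per library are not given in the sources used here. With no replicate, a difference between genotypes cannot be told apart from a difference between the plants or libraries, and Fisher's exact test below compares libraries, not genotypes.

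In plants, methylation of CHG sites (H is A, C or T) is copied by the chromomethylase CMT3, which binds histone H3 methylated at lysine 9, and is normally found on transposons and repeats. Gene bodies often carry CG methylation alone, kept by MET1, and the demethylase IBM1 keeps lysine 9 methylation off them. DDM1 is a chromatin remodeler that gives methyltransferases access to heterochromatin. RDR2 makes the double-stranded RNA from which small RNAs that direct DNA methylation are cut. CCR4a and CCR4b are deadenylases of the CCR4-NOT complex, which shortens the poly(A) tails of messenger RNA. Gains of CHG methylation at sequences outside transposons have been described in ddm1 mutants, while transposons lose methylation.

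Sequences of 6 bins show what kind of sequence was involved. The first had 20% CHG only in ddm1 rdr2, the next 2 had it in both mutants without DDM1, the 2 after those had it only in the quadruple mutant, and the last belongs to a deeply covered region described below. They were rebuilt from the cytosine positions and trinucleotides of the deposited files, on the plus strand of the build that the file names call ColCEN. A capital C is a CHG cytosine on the printed strand, a capital G pairs with a CHG cytosine on the other strand, and n is an A or T that no listed trinucleotide resolves.
chr5:5201101-5201200: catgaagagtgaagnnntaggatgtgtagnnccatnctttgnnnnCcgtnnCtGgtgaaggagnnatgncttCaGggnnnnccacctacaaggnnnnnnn
chr1:20657101-20657200: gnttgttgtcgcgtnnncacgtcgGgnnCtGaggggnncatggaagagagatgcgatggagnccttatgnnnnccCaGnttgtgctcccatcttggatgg
chr2:13997501-13997600: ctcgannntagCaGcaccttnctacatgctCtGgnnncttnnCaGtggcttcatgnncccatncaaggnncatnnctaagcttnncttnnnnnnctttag
chr5:19277301-19277400: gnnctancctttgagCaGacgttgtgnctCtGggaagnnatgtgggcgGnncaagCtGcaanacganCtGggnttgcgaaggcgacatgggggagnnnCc
chr2:19974701-19974800: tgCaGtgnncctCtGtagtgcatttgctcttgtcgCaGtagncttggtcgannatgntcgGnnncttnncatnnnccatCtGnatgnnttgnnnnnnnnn
chr3:23937201-23937300: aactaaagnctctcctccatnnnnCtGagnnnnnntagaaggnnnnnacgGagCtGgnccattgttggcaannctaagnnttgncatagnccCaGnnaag

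In these bins most CHG sites are the CAG and CTG pairs, in which both strands carry a target cytosine. The first bin had 13.1% CHG in the quadruple mutant and 75.4% in ddm1 rdr2, against 0 of 108 calls in WT, which allows up to 2.78%, and it had no covered CHG site in ccr4a ccr4b. The second had 31.4% in the quadruple mutant, 67.3% in ddm1 rdr2, 18.1% in ccr4a ccr4b and 0.394% in WT. The third had 72.8% in the quadruple mutant, 32.9% in ddm1 rdr2, 1.54% in ccr4a ccr4b and 0 of 151 calls in WT, which allows up to 1.99%. These 3 bins differ in which mutant is higher and all are near 0 in WT. The fourth had 77.3% in the quadruple mutant and 1.08% in ddm1 rdr2, against 0 of 459 calls in ccr4a ccr4b, which allows up to 0.654%, and 0.326% in WT. The fifth had 50.8% in the quadruple mutant and 5.50% in ddm1 rdr2, against 0 of 35 calls in ccr4a ccr4b, which allows up to 8.57%, and 0 of 129 calls in WT, which allows up to 2.33%. It had no methylated CG call in any library. The fourth bin was CG-methylated throughout, with 90.4% in the quadruple mutant, 64.05% in ddm1 rdr2, 89.1% in ccr4a ccr4b and 70.9% in WT.

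One region goes against the description of the bins as CHG gained without DDM1. On chromosome 3, positions 23936801 to 23937600, 8 adjoining member bins had a pooled CHG level of 43.7% in the quadruple mutant, 0.318% in ddm1 rdr2, 66.4% in ccr4a ccr4b and 0.0349% in WT. Its printed bin, the last above, had 44.5% in the quadruple mutant and 72.3% in ccr4a ccr4b, against 0 of 356 calls in ddm1 rdr2, which allows up to 0.843%, and 0 of 364 calls in WT, which allows up to 0.824%. The level was high in the libraries that carry ccr4a ccr4b, with DDM1 intact or not, and near 0 in ddm1 rdr2. Its CG level was 20.98% in the quadruple mutant, 0.422% in ddm1 rdr2, 73.0% in ccr4a ccr4b and 0.0484% in WT, and its CHH level was 25.4%, 0.375%, 44.2% and 0.0136% in the same order of libraries. Its 44952 CHG calls in the quadruple mutant were 26.3% of all CHG calls of the member bins in that library, against 3143 calls or 2.45% in ddm1 rdr2. Its 14146 CHG calls in ccr4a ccr4b were 19.9% of the member calls of that library, against 2865 calls or 2.65% in WT. Both libraries that carry ccr4a ccr4b were thus unusually deep here, with 556 calls per cytosine of all contexts in the quadruple mutant and 179 in ccr4a ccr4b, against 38.9 in ddm1 rdr2 and 35.3 in WT. The part of this coverage in its levels was not tested, and where the region lies relative to the CCR4 loci or to any insertion carried by the ccr4 alleles was not analysed here. Pooled levels of the 3 contexts are therefore given with all 691 bins and with the 683 bins outside this region, called the deeply covered region.

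The libraries were deep enough for single bins to be read. They held between 574097022 calls, in ccr4a ccr4b, and 785451909 calls, in the quadruple mutant, and 42.8% of nuclear cytosines had 4 calls in ccr4a ccr4b, against 61.6% to 69.3% in the other libraries. Chloroplast CHG, which serves as a measure of incomplete conversion, was between 0.0918% and 0.111%. In arm bins with WT CHG of 20% or more, CAG and CTG sites had 17.4% in the quadruple mutant, 16.3% in ddm1 rdr2, 52.6% in ccr4a ccr4b and 53.2% in WT, so both libraries labelled ddm1 rdr2 had lost methylation where WT had it. A member bin had a median of 21.8 calls per CHG cytosine in the quadruple mutant, 18.0 in ddm1 rdr2 and 14.6 in WT, against 23.3, 19.2 and 17.6 in the other arm bins with WT CHG under 5%. Their median GC content was 41%, against 42% in those other bins. All intervals below are 95% intervals of counting error and do not cover variation between plants. These intervals and Fisher's exact test treat each call as independent. Calls on the same read are not independent, and the reads were PCR-amplified and carry no molecular identifiers. The intervals may therefore be too narrow even for counting error.

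CHG methylation of the member bins was set by the rule at both ends, and its spread between them was not. Pooled CHG was 28.9% in the quadruple mutant, 25.6% in ddm1 rdr2, 17.7% in ccr4a ccr4b and 0.620% in WT. Without the deeply covered region it was 23.6%, 26.2%, 5.64% and 0.636% in the same libraries. In the 683 bins the mutants without DDM1 had similar pooled levels, and ccr4a ccr4b lay well below both. Bins were taken for high CHG in those mutants, never in ccr4a ccr4b, so this order follows at least in part from the rule. In bins at 20% only in ddm1 rdr2, the quadruple mutant had 5.26% and ccr4a ccr4b 1.28%. In bins at 20% only in the quadruple mutant, outside the deeply covered region, ddm1 rdr2 had 3.28% and ccr4a ccr4b 2.71%. The remaining arm bins with WT CHG under 5% had 0.245% in the quadruple mutant, 0.189% in ddm1 rdr2, 0.225% in ccr4a ccr4b and 0.111% in WT. The median bin of the 691 had 22.2% in the quadruple mutant, 22.3% in ddm1 rdr2, and 0 in ccr4a ccr4b and in WT.

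High levels were uncommon. In the quadruple mutant, 407 member bins had 20% or more, 103 had 40% or more, 35 had 60% or more and 8 had 80% or more, with a maximum of 92.9%. In ddm1 rdr2 the counts were 411, 112, 47 and 7, with a maximum of 94.4%. Most members therefore sat in the lower part of the range, and the threshold cut through a continuous slope: 54 members had a higher mutant level between 20% and 21%, while 53 bins just outside had 19% to 20%. A member at the threshold had 20% of 40 calls in the quadruple mutant on chromosome 1, positions 4836301 to 4836400, and the nearest bin outside had 19.96% of 481 calls on chromosome 2, positions 12696001 to 12696100. At the WT limit, 21 members had WT CHG of 4% to 5%, and 24 bins with 5% to 6% met the rule otherwise. In 519 members WT had no methylated CHG call.

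The precision of single bins was limited. For 662 of 691 members the lower bound of the higher mutant lay above the upper bound of WT. The rule required low CHG in WT and high CHG in a mutant without DDM1. This separation therefore follows at least in part from the rule and is no measure of precision. The lower bound of the higher mutant lay above the 20% threshold in 389 of 691 members. In 109 members the higher mutant had under 50 CHG calls. By Fisher's exact test adjusted over all nuclear bins by the Benjamini-Hochberg method, with a difference of at least 20 points, ddm1 rdr2 was higher than WT in 367 members, where 0.177% of all nuclear bins and 0.101% of arm bins with low WT CHG were called. The quadruple mutant was higher than WT in 363 members, where 0.176% of all nuclear bins and 0.101% of the arm bins were called, and 616 members were called in either comparison. These counts follow from the rule and both comparisons share the WT library.

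**Figure D1:**
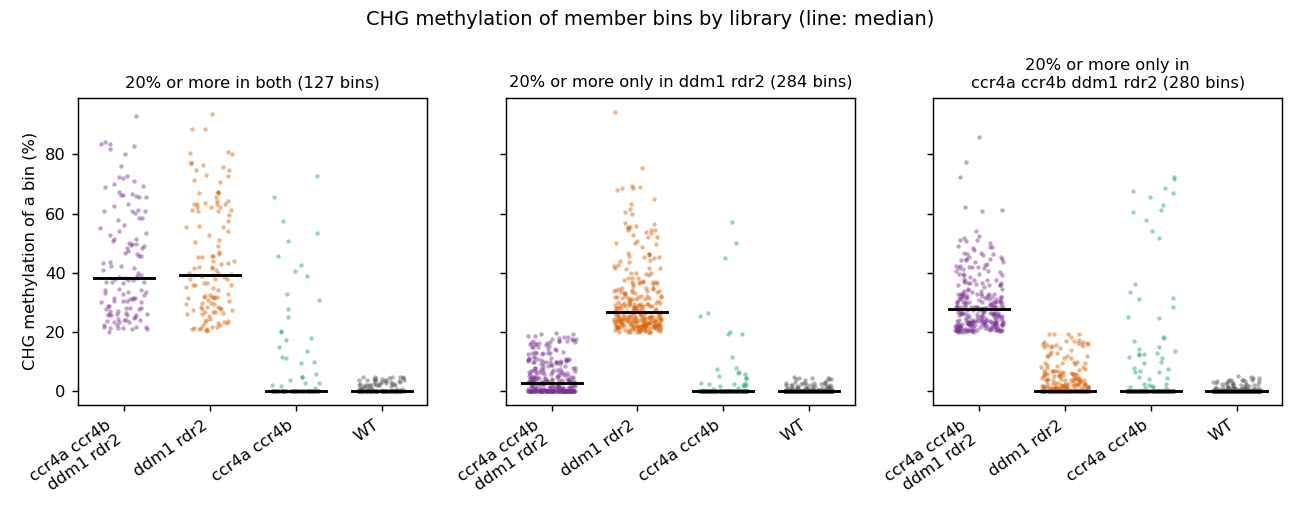
CHG methylation (%) of each member bin in the quadruple mutant, ddm1 rdr2, ccr4a ccr4b and WT, with each point 1 bin of 100 bp and each line the median. The panels split the bins by the rule into 127 at 20% or more in both mutants without DDM1, 284 only in ddm1 rdr2 and 280 only in the quadruple mutant, and the bins of ccr4a ccr4b lie mostly at 0 in all 3 panels.

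The bins that reached 20% were mostly different ones in the mutants without DDM1. Of the 691 members, 127 reached 20% in both, 284 only in ddm1 rdr2 and 280 only in the quadruple mutant. The 127 shared bins are 31.2% of the 407 bins at 20% in the quadruple mutant and 30.9% of the 411 in ddm1 rdr2. Of all arm bins with WT CHG under 5%, 0.112% reached 20% in the quadruple mutant and 0.113% in ddm1 rdr2. A fixed threshold on single libraries also splits bins that lie close to it. The shared bins were also the most methylated ones, with medians of 38.2% in the quadruple mutant and 39.3% in ddm1 rdr2. The bins of ddm1 rdr2 alone had a median of 26.8% in ddm1 rdr2, and those of the quadruple mutant alone a median of 27.6% in the quadruple mutant.

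Bins of 1 mutant were mostly under 5% in the other rather than just below the threshold. A low level is usual in arm bins: the other ones with WT CHG under 5% had a median of 0 in both mutants. Their pooled CHG was 0.245% in the quadruple mutant and 0.189% in ddm1 rdr2. Bins of ddm1 rdr2 alone were above this in the quadruple mutant, at 5.26%. Bins of the quadruple mutant alone, outside the deeply covered region, were above it in ddm1 rdr2, at 3.28%. Of the 284 bins of ddm1 rdr2 alone, 182 had under 5% in the quadruple mutant, and 92 of these had no methylated call there. Of the 280 bins of the quadruple mutant alone, 216 had under 5% in ddm1 rdr2, and 144 of these had no methylated call. By Fisher's exact test with the same adjustment and 20 points, the quadruple mutant was higher than ddm1 rdr2 in 201 members and lower in 195. Over all nuclear bins 0.276% were called higher and 0.409% lower, and among arm bins with low WT CHG 0.0555% higher and 0.0549% lower. Both member counts follow from the rule, which took bins high in either library. Without the deeply covered region the counts were 193 higher and 195 lower, so nearly equal numbers of bins were called in each direction.

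The pooled CHG difference had no stable direction. The quadruple mutant minus ddm1 rdr2 was 3.25 points (interval 2.92 to 3.57) over 691 bins, and -2.67 points (interval -3.01 to -2.33) over the 683 bins outside the deeply covered region. The mean of single cytosines gave -0.463 points. It stayed positive, at 0.70 points (interval 0.231 to 1.16), without cytosines over 3 times the median coverage. The sign thus depended on which bins and cytosines entered and how they were weighted.

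**Figure D2:**
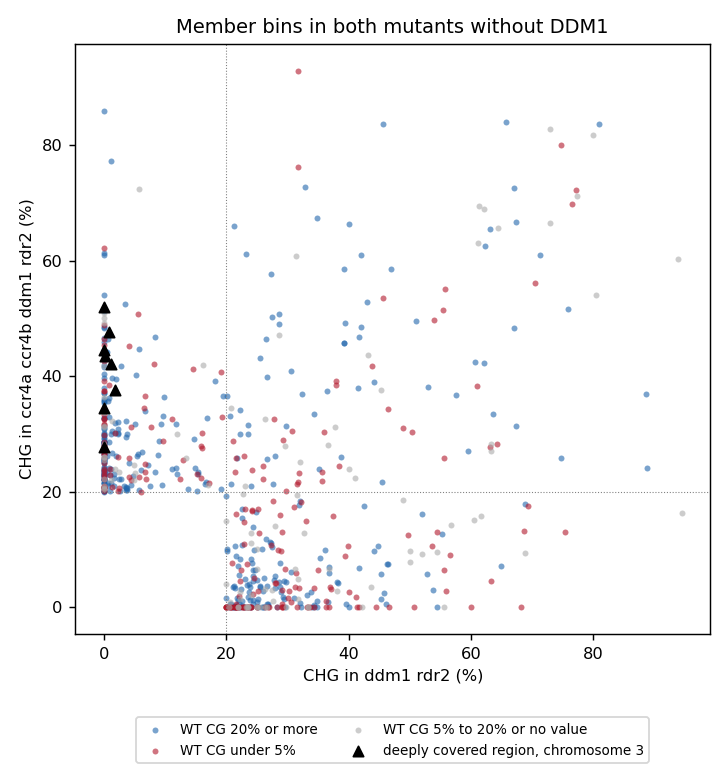
CHG methylation (%) of each member bin in the quadruple mutant (vertical axis) against ddm1 rdr2 (horizontal axis), coloured by the CG level of the bin in WT, with dotted lines at 20%. Many bins lie along an axis, near 0 in the other library, and the 8 triangles of the deeply covered region lie near 0 in ddm1 rdr2.

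Member bins were scattered in short runs. Joined across gaps of up to 100 bp, they formed 500 regions, of which 411 held 1 bin, 89 held 2 or more bins and 40 held 3 or more. The 89 longer regions held 280 of the members. The level of a region was pooled over all its bins from start to end, including bins in the gaps that were not members. Pooled in this way, CHG was at 20% or more in both mutants without DDM1 in 76 regions. It was so only in ddm1 rdr2 in 208, only in the quadruple mutant in 212, and in neither in 4.

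The longest region was methylated in CHG mainly in ddm1 rdr2. It held 17 member bins on chromosome 5, positions 5200401 to 5202500, with 7.79% CHG in the quadruple mutant (interval 7.13 to 8.495), 47.6% in ddm1 rdr2 (interval 46.5 to 48.7), 1.33% in ccr4a ccr4b and 0.349% in WT. All 17 bins were at 20% or more in ddm1 rdr2, between 21.2% and 75.4%, and 1 was in the quadruple mutant. The CHH level differed in the same direction, with 1.99% in the quadruple mutant, 14.4% in ddm1 rdr2, 0.00938% in ccr4a ccr4b and 0.168% in WT. CG was nearly the same in all libraries, with 55.7% in the quadruple mutant, 57.0% in ddm1 rdr2, 62.0% in ccr4a ccr4b and 57.6% in WT. The first sequence printed above comes from this region.

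The next region was methylated in 3 libraries. It lay on chromosome 1, positions 20656501 to 20657900, and held 13 member bins. Its CHG was 25.9% in the quadruple mutant, 44.2% in ddm1 rdr2, 20.4% in ccr4a ccr4b and 0.416% in WT. In ccr4a ccr4b 3 of the 13 bins were at 20% or more, up to 42.7%, so CHG was present here also with DDM1 intact. CG lay between 68.0% and 76.5% in all 4 libraries. The second sequence above is one of these bins.

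Other long regions included strong cases of each kind. A region on chromosome 4, positions 9761301 to 9762000, held 6 member bins. Its CHG was 48.6% in the quadruple mutant and 57.0% in ddm1 rdr2, against 0.0363% in WT. In ccr4a ccr4b it had 0 of 1731 calls, which allows up to 0.173%. CHH there was 12.8% in the quadruple mutant and 19.4% in ddm1 rdr2, against 0.0189% in ccr4a ccr4b and 0 in WT. CG was lower in the libraries with gained CHG, at 53.8% in the quadruple mutant and 60.1% in ddm1 rdr2, against 75.6% in ccr4a ccr4b and 78.9% in WT. A region on chromosome 2, positions 13996801 to 13997800, held 8 member bins. Its CHG was 46.0% in the quadruple mutant and 29.3% in ddm1 rdr2, against 0.698% in ccr4a ccr4b and 0.0824% in WT. Another on chromosome 2, positions 10835201 to 10835800, held 5 member bins. Its CHG was 52.7% in the quadruple mutant and 38.7% in ddm1 rdr2, against 0.786% in WT. In ccr4a ccr4b it had 0 of 613 calls, which allows up to 0.489%. These 3 regions had CHG in both mutants without DDM1 and almost none in the libraries with DDM1. The last of them also had more CG in both, with 72.0% in the quadruple mutant and 71.5% in ddm1 rdr2, against 59.2% in ccr4a ccr4b and 50.8% in WT.

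Regions of 1 mutant were found in both directions. On chromosome 5, positions 3271701 to 3272300, a region with 5 member bins had 4.26% CHG in the quadruple mutant and 35.8% in ddm1 rdr2, against 0.200% in WT. On chromosome 2, positions 9423301 to 9423900, a region with 5 member bins had 5.07% in the quadruple mutant and 27.5% in ddm1 rdr2, against 0.598% in WT. On chromosome 1, positions 19409301 to 19409700, 4 bins had 0.949% in the quadruple mutant and 36.8% in ddm1 rdr2, against 0.0756% in WT, and here CG was also higher in ddm1 rdr2, at 80.4%, against 48.9% in the quadruple mutant, 58.1% in ccr4a ccr4b and 59.9% in WT. In these regions CHG was high in the ddm1 rdr2 library and low in that of the quadruple mutant.

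In the other direction, 6 bins on chromosome 5, positions 19277001 to 19277600, had 37.3% CHG in the quadruple mutant and 1.47% in ddm1 rdr2, against 0 of 2574 calls in ccr4a ccr4b, which allows up to 0.117%, and 0.0978% in WT. On chromosome 5, positions 25815901 to 25816400, 5 bins had 41.9% in the quadruple mutant and 0.0882% in ddm1 rdr2, against 4.01% in ccr4a ccr4b and 1.17% in WT. On chromosome 2, positions 19974501 to 19974900, 4 bins had 35.4% in the quadruple mutant and 7.27% in ddm1 rdr2, against 0 of 145 calls in ccr4a ccr4b, which allows up to 2.07%, and 0 of 395 calls in WT, which allows up to 0.759%. The chromosome 2 region is the source of the fifth sequence, which has 4 pairs of CHG sites and a single unpaired site. Its CG level was 0.205% in the quadruple mutant and 0 in the other libraries, while the chromosome 5 regions had CG between 66.3% and 83.3% in every library. CHG without DDM1 was therefore found both on CG-methylated and on CG-free sequence.

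**Figure D3:**
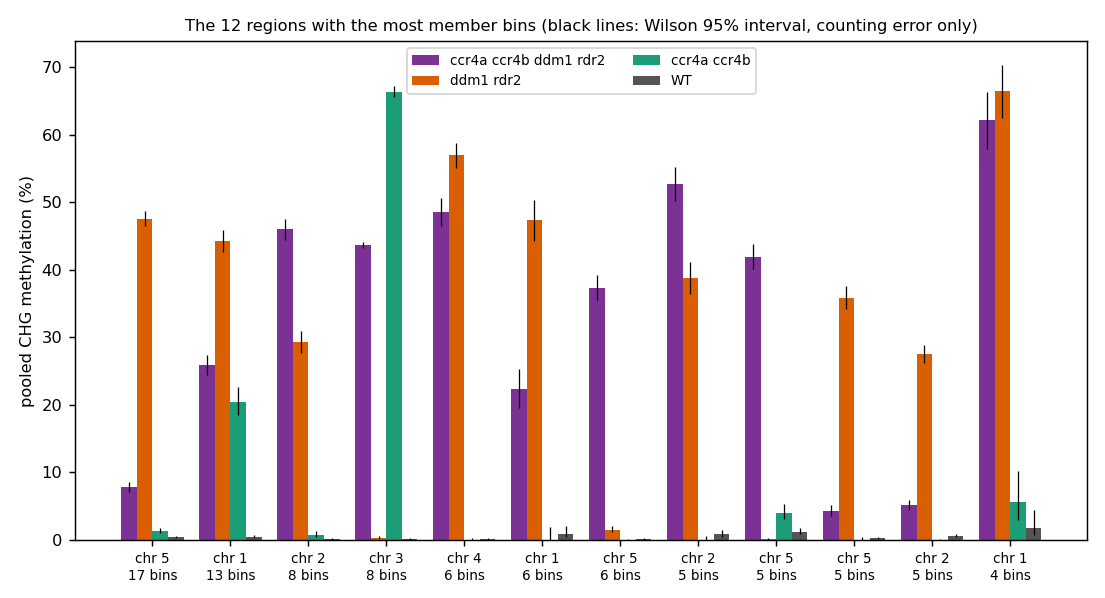
Pooled CHG methylation (%) of the 12 regions with the most member bins, in the quadruple mutant, ddm1 rdr2, ccr4a ccr4b and WT, with bars for the pooled level and black lines for the Wilson 95% interval of counting error. WT is under 2% in every region, 3 regions are high only in ddm1 rdr2 and 3 only in the quadruple mutant among the mutants without DDM1, and the fourth region from the left is the deeply covered one, highest in ccr4a ccr4b.

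The CG state of the bins in WT was not used by the rule. Of the 575 members with at least 2 CG cytosines, 355 or 61.7% had WT CG of 20% or more, while 25.1% of 324168 other arm bins with WT CHG under 5% did. A further 208 members, or 36.2%, had WT CG under 5%, against 73.2% of the other bins. In the members with WT CG of 20% or more, the median CG level was 71.3% in the quadruple mutant, 70.1% in ddm1 rdr2, 74.3% in ccr4a ccr4b and 71.1% in WT. In the other arm bins of that CG class it was 57.5% in the quadruple mutant, 55.9% in ddm1 rdr2, 63.6% in ccr4a ccr4b and 68.2% in WT. The members' medians thus lay close together in all libraries. In the other bins every mutant was below WT, the mutants without DDM1 by more than ccr4a ccr4b. Both groups were picked on CG in the WT library, which can place the other libraries below WT. Members were also picked on CHG of a mutant from the same reads. These medians are therefore a description, and the part of selection in them was not tested. The share with WT CG of 20% or more was 70.0% among bins of the quadruple mutant alone, 53.7% among bins of ddm1 rdr2 alone and 60% among shared bins.

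Of the members with WT CG under 5%, a minority reached 20% CG in a mutant without DDM1, though a larger share than of other bins. Of the 208 members with WT CG under 5%, 57 reached 20% CG in the quadruple mutant, 67 in ddm1 rdr2 and 91 in either. Of 237228 other arm bins with WT CHG under 5% and WT CG under 5%, 5300 did in the quadruple mutant, 5745 in ddm1 rdr2 and 7858 in either. The deeply covered region was not left out of the member counts. Their median CG stayed at 0.810% in the quadruple mutant and 2.25% in ddm1 rdr2, against 0 in ccr4a ccr4b and WT, while their median CHG was 20.3% in the quadruple mutant and 23.7% in ddm1 rdr2. The group was chosen on low WT CG and on 20% CHG in a mutant, so the higher median of CHG is a description. By Fisher's exact test adjusted over all nuclear bins, with at least 40 points, ddm1 rdr2 exceeded WT in CG in 49 of 437 members tested and was lower in 14, where 0.695% of all nuclear bins were called higher and 24.6% lower. It was higher in the quadruple mutant than in WT in 31 of 438 members and lower in 11, where 0.67% of all nuclear bins were called higher and 24.7% lower. In arm bins with WT CHG under 5%, 0.936% were called higher and 2.28% lower in the quadruple mutant minus WT, and 0.931% higher and 2.53% lower in ddm1 rdr2 minus WT. The lower calls of members, at 2.51% in the first comparison and 3.20% in the second, were near this background. Both contrasts contain the libraries that chose the bins.

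Pooled CG was 49.5% in the quadruple mutant, 56.6% in ddm1 rdr2, 62.6% in ccr4a ccr4b and 53.2% in WT, and ddm1 rdr2 minus WT was 3.43 points (interval 2.99 to 3.86). Without the deeply covered region, pooled CG was 57.8% in the quadruple mutant, 57.7% in ddm1 rdr2, 60.6% in ccr4a ccr4b and 54.3% in WT, and ddm1 rdr2 minus WT was 3.36 points (interval 2.92 to 3.80). The mutants without DDM1 then differed by 0.11 points (interval -0.308 to 0.537), which covers 0. Pooled CG did not differ in 1 direction across the classes. In the shared bins the quadruple mutant minus WT was 14.8 points (interval 13.9 to 15.8) and ddm1 rdr2 minus WT was 12.9 points (interval 11.97 to 13.88). In the bins of ddm1 rdr2 alone the quadruple mutant minus WT was -1.22 points and ddm1 rdr2 minus WT was 6.20 points. In the bins of the quadruple mutant alone, without the deeply covered region, the quadruple mutant minus WT was 1.72 points and ddm1 rdr2 minus WT was -5.12 points, and with that region they were -12.8 and -4.68 points.

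CHH methylation was low and was found together with high CHG. Pooled CHH was 6.93% in the quadruple mutant, 3.96% in ddm1 rdr2, 7.19% in ccr4a ccr4b and 0.195% in WT. Without the deeply covered region it was 2.47%, 4.02%, 0.821% and 0.199% in the same libraries, so ddm1 rdr2 had the highest level there and ddm1 rdr2 minus WT was 3.83 points (interval 3.77 to 3.88). In ddm1 rdr2 the median CHH of members was 1.89% at a CHG of 20% to 30%, 4.40% at 30% to 40%, 5.34% at 40% to 60% and 12.5% at 60% or more. In the quadruple mutant it was 1.33%, 1.88%, 3.01% and 8.01% in the same bands, with the deeply covered region included. CHH was thus higher in each higher CHG band in both libraries, and within each band it was lower in the quadruple mutant. Contexts of 1 bin share their reads.

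Not every member with CHG had CHH. Of the 407 members at 20% CHG or more in the quadruple mutant, 136 had CHH under 1% and 50 had 10% or more. The 407 include the 8 bins of the deeply covered region, which had a pooled CHH of 25.4%. Of the 411 in ddm1 rdr2, 107 had CHH under 1% and 81 had 10% or more. By Fisher's exact test with 10 points, ddm1 rdr2 exceeded WT in CHH in 78 of 690 members tested, where 0.72% of all nuclear bins and 0.0536% of arm bins with WT CHG under 5% were called higher. It was higher in the quadruple mutant than in WT in 48 of 691 members, 40 of them outside the deeply covered region, where 0.338% of all nuclear bins and 0.0261% of the arm bins were called.

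The trinucleotides of the methylated sites were ordered as at WT-methylated sites. In the 683 bins, CAG and CTG together had 25.2% in the quadruple mutant and 28.2% in ddm1 rdr2, and CCG had 16.6% in the quadruple mutant and 18.7% in ddm1 rdr2. CCG was thus at 0.657 times the level of CAG and CTG in the quadruple mutant and at 0.664 times in ddm1 rdr2. In arm bins with WT CHG of 20% or more, this ratio was 0.679 in WT, with 53.2% at CAG and CTG and 36.1% at CCG. In those bins the ratio was 0.416 in the quadruple mutant and 0.409 in ddm1 rdr2, lower than at the members in the same libraries. The lower level of CCG than of CAG and CTG is known for CHG methylation in WT Arabidopsis.

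Among CHH sites of the 683 bins, CAA and CTA were highest. CAA had 6.91% in the quadruple mutant and 10.47% in ddm1 rdr2, against 0.355% in WT, and CTA had 7.38% in the quadruple mutant and 10.7% in ddm1 rdr2, against 0.459% in WT. CCC had 0.345% in the quadruple mutant and 0.532% in ddm1 rdr2, against 0.106% in WT. CAA and CTA are the sites that the chromomethylase CMT2 is known to prefer. They also led in WT in arm bins with WT CHG of 20% or more, with 39.1% at CAA, 39.0% at CTA and 2.89% at CCC. The deeply covered region had a flatter order, with 37.1% at CAA, 36.4% at CTA and 14.0% at CCC in the quadruple mutant.

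Both strands carried the gained methylation. Of 1775 CAG or CTG pairs covered on both strands in member bins, the plus strand had 31.4% and the minus strand 31.8% in the quadruple mutant, and the plus strand had 27.4% and the minus strand 27.97% in ddm1 rdr2. Over the 1742 pairs outside the deeply covered region, the plus strand had 24.7% and the minus strand 26.2% in the quadruple mutant, and the plus strand had 28.2% and the minus strand 28.7% in ddm1 rdr2. Across the 1775 pairs, Pearson's r between strands was 0.867 in the quadruple mutant and 0.818 in ddm1 rdr2, as a description, since the pairs share a library, a depth and often a bin. At 20% or more, 691 pairs were methylated on both strands and 223 on 1 strand in the quadruple mutant, and 686 on both and 240 on 1 strand in ddm1 rdr2. Of 375 bins at 20% with at least 2 CHG cytosines per strand in the quadruple mutant, 362 had 10% or more on each strand, and 356 of 374 did in ddm1 rdr2.

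Beside the regions CHG was lower than inside, as the rule that sets the edge requires, and it stayed above WT in the mutants without DDM1 for several bins. Around 88 regions of 2 or more bins, all but the deeply covered one, mean CHG of bins at 100 bp from the edge was 15.9% in the quadruple mutant, 15.8% in ddm1 rdr2, 6.17% in ccr4a ccr4b and 3.71% in WT. At 400 bp it was 10.48% in the quadruple mutant and 9.54% in ddm1 rdr2, against 7.81% in ccr4a ccr4b and 4.59% in WT. At 500 bp it was 6.41% in the quadruple mutant, 5.39% in ddm1 rdr2, 7.97% in ccr4a ccr4b and 5.12% in WT, at 600 bp it was 8.18% in the quadruple mutant and 7.32% in ddm1 rdr2, against 5.59% in ccr4a ccr4b and 5.16% in WT, and at 1000 bp both mutants without DDM1 were below WT, at 3.64% in the quadruple mutant and 3.11% in ddm1 rdr2, against 5.24% in WT. CG in the member bins averaged 51.8% in the quadruple mutant, 50.3% in ddm1 rdr2, 51.2% in ccr4a ccr4b and 45.2% in WT. At 500 bp CG was 18.8% in the quadruple mutant and 19.1% in ddm1 rdr2, against 32.4% in ccr4a ccr4b and 25.6% in WT. Both mutants without DDM1 were thus above WT in mean CG inside the regions and below it at 500 bp, while ccr4a ccr4b was above WT at both places.

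**Figure D4:**
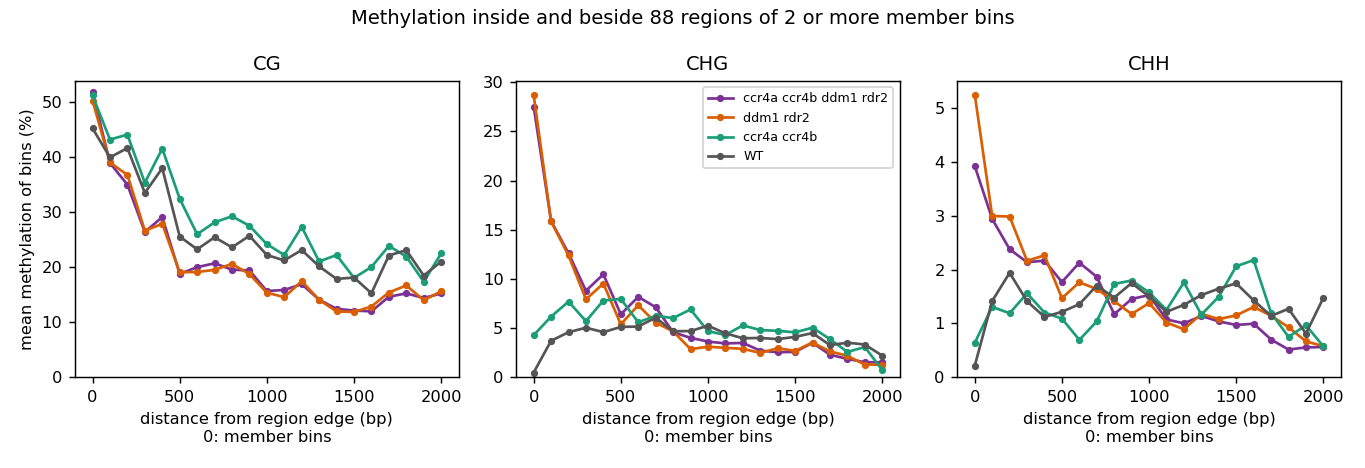
Mean methylation (%) of 100 bp bins inside (0) and up to 2000 bp beside 88 regions of 2 or more member bins, for CG, CHG and CHH, with a line for each library. In both mutants without DDM1, CHG drops to 15.9% and 15.8% at 100 bp and is below WT at 1000 bp, while the value at 0 was set by the rule.

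Member bins often lay near sequence with CHG methylation in WT. An arm bin with WT CHG of 20% or more lay within 1000 bp of 117 members, or 16.9%, against 2.24% of the other arm bins with WT CHG under 5%. Within 500 bp the shares were 15.3% of members and 0.824% of the other bins, and within 5000 bp they were 32.7% and 16.9%. The share within 1000 bp was 29.9% for shared bins, 16.2% for bins of ddm1 rdr2 alone and 12.1% for bins of the quadruple mutant alone outside the deeply covered region. Most members thus had no WT-methylated bin within 5000 bp. WT-methylated sites with too few calls are not seen by this count.

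Members occurred on all 5 chromosomes. There were 2.16 members per 1000 arm bins with WT CHG under 5% on chromosome 1, 1.98 on chromosome 2, 1.38 on chromosome 3, 2.005 on chromosome 4 and 1.93 on chromosome 5. Of 106 windows of 1 Mb, 2 held no member and the median window held 6. The window at positions 25000001 to 26000000 of chromosome 1 held the most members, with 43 in 23 regions or 12.3 per 1000. By rate, windows with fewer bins came close, such as the one at 11000001 of chromosome 3 with 8 members or 10.8 per 1000, and the one at 17000001 of chromosome 3 with 4 members or 10.6 per 1000. Of the 43 members in the chromosome 1 window, 19 were shared, 20 were of ddm1 rdr2 alone and 4 of the quadruple mutant alone. Pooled CHG in this window's members was 23.7% in the quadruple mutant (interval 22.7 to 24.8) and 35.04% in ddm1 rdr2 (interval 33.9 to 36.2), against 0.210% in ccr4a ccr4b and 1.05% in WT.

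Some of these bins are repeated sequence. Of the 43 members of that window, 18 had a second stretch in the genome with the same pattern of C and G over their central 50 bases. Over all members, 35 or 5.07% had such a copy, against 1.18% of the other arm bins with WT CHG under 5%, and in 3 of the 35 a copy had WT CHG of 20% or more. Some copies had no WT CHG value, so the count of 3 is a lower limit. Reads of a bin with a copy may be placed at either stretch, and how the authors treated them is not given in the sources used here. Without the 35 bins, 656 members remained, and pooled CHG was 29.2% in the quadruple mutant, 25.3% in ddm1 rdr2, 18.2% in ccr4a ccr4b and 0.613% in WT. Without the deeply covered region as well, the remaining 648 bins had 23.8% in the quadruple mutant, 26.01% in ddm1 rdr2, 5.73% in ccr4a ccr4b and 0.630% in WT.

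The ccr4a ccr4b library was used neither to include nor to exclude a bin. In most members it stayed near WT: of 371 members with 4 CHG cytosines covered in all libraries, 273 had no methylated call in ccr4a ccr4b and 306 had under 5%. It reached 20% or more in 31 members, 8 of them in the deeply covered region. The other 23 are 6.34% of 363 members, where 0.107% of all arm bins with WT CHG under 5% reached that level. By Fisher's exact test adjusted over all nuclear bins, with at least 20 points, ccr4a ccr4b was higher than WT in 28 of 379 members tested, where 0.897% of all nuclear bins and 0.086% of arm bins with WT CHG under 5% were called higher. Without the deeply covered region 20 of 371 were called higher. At cytosines covered in all libraries, pooled CHG of the 683 bins was 5.64% in ccr4a ccr4b and 0.697% in WT, a difference of 4.95 points (interval 4.75 to 5.15). The rule held WT low and so widens this difference. In CG, with 40 points, ccr4a ccr4b was higher than WT in 18 of 287 members tested, 12 of them outside the deeply covered region, and lower in 9, where 0.733% of all nuclear bins were called higher and 1.46% lower, and 0.967% and 1.31% of the arm bins. In CHH, with 10 points, it was higher in 16 of 547 members, 8 of them outside that region, where 0.822% of all nuclear bins and 0.16% of the arm bins were called.

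The 23 bins lay in 17 regions. They had a median CHG of 36.7% in the quadruple mutant, 26.6% in ddm1 rdr2 and 45.1% in ccr4a ccr4b, and 13 of them were shared bins, 3 of ddm1 rdr2 alone and 7 of the quadruple mutant alone. A region on chromosome 3, positions 133401 to 134000, held 4 member bins. Its CHG was 43.7% in the quadruple mutant, 26.2% in ddm1 rdr2, 49.2% in ccr4a ccr4b and 1.601% in WT. Neighbouring member bins at 132801 and 133101 had 72.7% and 65.6% in ccr4a ccr4b. A region on chromosome 4, positions 16562301 to 16562900, held 4 member bins. Its CHG was 54.7% in the quadruple mutant, 23.1% in ddm1 rdr2, 26.03% in ccr4a ccr4b and 1.20% in WT. In ccr4a ccr4b 1 of these 4 bins was at 20% or more, at 57.4%, and in ddm1 rdr2 2 of them were, while the lowest bin was at 0 in both libraries. In these 2 regions pooled CHG was under 2% in the WT library and above 20% in all 3 mutant libraries, so CHG there was not limited to plants without DDM1, although in the second region few bins carried it outside the quadruple mutant.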

How the data were processed

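Enzymatic methyl-seq libraries from leaves of 4 genotypes were analysed, 1 per genotype, grouped by the genotype label. Per the labels' protocols, each was made from 100 ng of DNA with 13 PCR cycles. The deposited values are counts of methylated and unmethylated calls made by the authors for each cytosine. Bismark 0.22.3 was used, per the submitters' processing notes. Trimming, paired-end alignment and the ColCEN build can be read only in the deposited files' names. Duplicate removal and multi-mapping reads are not given in the sources used here. Covered cytosines had at least 3 calls in every library, a floor whose origin is not stated.

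Calls were summed in 100 bp bins over cytosines with at least 4 calls in WT, ddm1 rdr2 and the quadruple mutant (ccr4a ccr4b ddm1 rdr2), and also in ccr4a ccr4b for comparisons with that library. Levels are methylated shares with Wilson 95% intervals, and differences have Newcombe intervals. Two-sided Fisher's exact tests were adjusted over all nuclear bins of a comparison by the Benjamini-Hochberg method. A call needed an adjusted p under 0.01 and 40 points in CG, 20 in CHG or 10 in CHH. The procedure was tested on simulated CHG counts with counting error only and 200 planted changes of 30 points per comparison. It recovered 78% of them for the quadruple mutant minus ddm1 rdr2 and 86.5% for ccr4a ccr4b minus WT. In both, 0 unchanged bins were called. Regions named were the 12 with the most members, 4 of each mutant alone, and the 4 with the highest ccr4a ccr4b CHG among those of 3 or more bins. The members, lists and rules were chosen with earlier results of these data known. No genome or annotation of the build was used here, so no gene is named, and the planned gene lists and share of bins inside genes were not analysed here. Alternatives changed the coverage and cytosine minimums, weighting, high coverage, bin position, thresholds and arm distance. Leaving out the deeply covered region or repeated bins was added after the data were seen. Python 3.11.15, NumPy 2.4.6, SciPy 1.17.1, pandas 2.3.3, numba 0.67.0 and matplotlib 3.10.9 were used.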

Additional observations from a re-analysis of the deposited data

Results flagged for a closer look

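Some differences between ccr4 mutants and their counterparts had opposite signs in plants with and without DDM1. None of these contrasts of differences was tested, because each genotype had 1 library, and the members were chosen on 3 of the 4 libraries. In CG over all 691 member bins, the quadruple mutant minus ddm1 rdr2 was -7.10 points and ccr4a ccr4b minus WT was 7.69 points, so the first was -14.8 points relative to the second. The deeply covered region of chromosome 3 holds many of these calls: without it the values were 0.11 and 4.25 points.

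In CHG over the 683 bins outside that region, the differences were -2.67 points without DDM1 and 4.95 points with it, -7.61 points apart. The rule held WT CHG under 5% and set no limit on ccr4a ccr4b, which favours a positive difference with DDM1. In CHH over the same bins the differences were -1.55 points without DDM1 and 0.639 points with it, -2.19 points apart. In the region of chromosome 1 that starts at 20656501, CHG differed by -18.4 points without DDM1 and by 20.005 points with it, -38.4 points apart. In the region of chromosome 2 that starts at 10835201, it differed by 13.9 points without DDM1 and by -0.849 points with it, 14.8 points apart. Intervals of counting error leave out 0 in all 10 of these differences, but they treat calls as independent and do not cover variation between plants.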

How the results depend on the processing

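No paired analysis was possible because each genotype had 1 library, and no replicate could be left out. The main limits are that 1 library stands for each genotype, that bins with few calls cross the thresholds easily, and that 1 region of 8 bins holds 26.3% of the CHG calls of the quadruple mutant in member bins. The share of bins inside genes was not run. The cause of the changes below was not tested, apart from smaller counts where fewer bins entered. The 691 members became 416 with 10 calls per cytosine, 204 with 8 CHG cytosines and 323 with a mutant CHG of 30%. The CHG difference the quadruple mutant minus ddm1 rdr2, 3.25 points, was -2.67 without the deeply covered region and -0.463 with single cytosines averaged, both reversed. It was 0.70 without cytosines over 3 times the median coverage, 3.86 without repeated bins, 4.11 with WT CHG under 2%, 4.17 with 10 calls, 4.33 with arms over 3 Mb from the arrays and 5.54 with 8 cytosines. Members called in this comparison, 396, were 262 with 10 calls, 129 with 8 cytosines and 209 with a mutant CHG of 30%. Members called in ccr4a ccr4b minus WT, 28, were 14 with 8 cytosines and 13 without highly covered cytosines. The CG difference ddm1 rdr2 minus WT, 3.43 points, was 5.20 with single cytosines averaged, 5.46 without highly covered cytosines, 4.03 with bins shifted by 50 bp, 6.07 with a mutant CHG of 30%, 3.96 with arms over 3 Mb away and 4.06 without repeated bins. The CHH difference, 3.77 points, was 3.69 with 10 calls, 3.85 with 8 cytosines, 3.11 without highly covered cytosines, 3.93 with shifted bins, 5.53 with a mutant CHG of 30%, 3.65 with arms over 3 Mb away, 3.83 without the deeply covered region and 3.70 without repeated bins. The signs of the CG and CHH differences held in all 10 alternatives run for each.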

Other observations

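Most arm bins with high CHG in a mutant without DDM1 were methylated in WT as well. Of 11211 arm bins with enough CHG cytosines and 20% CHG or more in the quadruple mutant or ddm1 rdr2, 10153 also had 20% or more in WT. The bins described above are the 691 of these with WT CHG under 5%.

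Some members reached the CHG level of WT-methylated sequence. On chromosome 5, positions 25082401 to 25082500, a bin with 8 CHG cytosines had 16.4% in the quadruple mutant and 94.4% in ddm1 rdr2, against 0 in ccr4a ccr4b and WT. On chromosome 5, positions 21065901 to 21066000, a bin with 9 CHG cytosines had 92.9% in the quadruple mutant and 31.7% in ddm1 rdr2, against 0 in WT, and its CG was 91.1% in the quadruple mutant and 100% in ddm1 rdr2, against 0 in WT. On chromosome 1, positions 23730101 to 23730200, a bin had 85.8% CHG in the quadruple mutant, against 0 in ddm1 rdr2, 12.5% in ccr4a ccr4b and 0 in WT, with CG between 85.4% and 94.0% in all 4 libraries. These 3 bins were named after their values were seen.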
